A study of Rattus norvegicus with 2 samples.

Results

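The regions described here are weak Chd7 peaks that lie beside, but not on, a Sox10 peak in rat oligodendrocytes, the glial cells that wrap axons of brain and spinal cord in myelin. A Chd7 peak was a member when it lay on chromosomes 1 to 20, had a caller score below 120, overlapped no Sox10 peak and had its centre at most 10 kb from the nearest Sox10 centre. Stretches of 1 Mb with 30 or more Chd7 peaks were left out. This gave 1257 members of 15310 Chd7 peaks in all. The data are 1 chromatin immunoprecipitation library with an antibody against Chd7 and 1 with an antibody against Sox10, both from primary Sprague Dawley oligodendrocyte progenitors that had differentiated for 3 days with the thyroid hormone T3. No other genotype, treatment or time is compared, and the single culture condition is shared by both libraries. The caller score orders peaks within a list by strength, its scale is not stated in the files, and the lowest value in each list is 50.

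Chd7 is an ATP-dependent chromatin remodeler of the chromodomain helicase family, whose mutation causes CHARGE syndrome. Such enzymes use ATP to move or evict nucleosomes and are known at promoters and at distal enhancers. Sox10 is an HMG-box transcription factor of neural crest and oligodendrocytes that is required for terminal differentiation and for expression of myelin genes. The study's title concerns an interaction of both proteins, and a Chd7 peak next to a Sox10 site but outside it is one of the arrangements such lists can hold.

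All 15310 deposited Chd7 peaks can be accounted for by the steps of the rule. Chromosomes 1 to 20 held 14624 of them, of which 1410 lay in the dense 1 Mb stretches and 13214 outside. Of the latter, 1790 scored 120 or more and 11424 scored less. Among the weak peaks 4775 overlapped a Sox10 peak and 6649 did not. The 1257 members were thus 18.9% of the weak Chd7 peaks without Sox10 overlap, and the other 5392 lay farther than 10 kb from any Sox10 centre. Members were chosen by the caller score of Chd7 and by position relative to Sox10, so those values are given as a description and carry no test. Neither antibody has a second library, so the spread between replicates is unknown. The intervals below are 95% intervals that cover counting error only, and peaks are not replicates.

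Members were weak and narrow Chd7 calls, most of them close to the lower score limit of the list. Their scores ran from 50.03 to 119.56 with a median of 60.35 (quartiles 54.05 and 72.59). Their widths ran from 107 to 3050 bp with a median of 279 bp (quartiles 233 and 348 bp), and together they covered 407 kb. Across members, score and width had a Spearman's rho of 0.34.

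The members lay over the whole range of distances that the rule allows. The median distance between centres was 4531 bp (quartiles 2333 and 6997 bp), and the smallest was 381.5 bp. Measured between the nearest edges of both peaks, the gap had a median of 3964 bp and ran from 6 to 9689 bp. The gap was under 200 bp in 44 of the 1257 members, under 500 bp in 110 and under 1000 bp in 210. How much sequence lies within these gaps was not computed, so the counts do not show whether such members are few or many. Members were evenly placed on both sides of Sox10 along the chromosome, with 632 at lower and 625 at higher coordinates, a share of 50.3% at lower coordinates (exact binomial interval 47.5% to 53.1%). Distance hardly went with the strength of the Chd7 call (rho of distance and score -0.04, and of distance and width -0.12, across 1257 members that share 1 library).

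Counted per length of sequence, weak Chd7 peaks outside Sox10 peaks were on average no more frequent within 10 kb of Sox10 than farther away. Within 10 kb of a Sox10 centre there were 2.31 of them per Mb of sequence not covered by Sox10 (exact Poisson interval 2.19 to 2.44, from 1257 peaks over 544 Mb). From 10 to 50 kb there were 2.43 per Mb (2.33 to 2.53, from 2452 peaks over 1009 Mb). The ratio of the near to the farther density was 0.95, with an interval of 0.89 to 1.02 that includes equal density. The interval lay below 1 in 4 alternatives: 0.91 (0.84 to 0.99) for Chd7 scores below 70, 0.91 (0.84 to 0.98) without stretches of 15 or more Chd7 peaks, 0.93 (0.87 to 0.998) for gaps of at least 500 bp and 0.77 (0.70 to 0.84) for the upper 50% of Sox10 peaks. In the last of these, Chd7 peaks on the lower 50% of Sox10 peaks counted as without overlap. Its ratio thus covers a different set of Chd7 peaks from the others. With the dense stretches kept, the ratio was 1.05 (0.98 to 1.11). From 50 to 100 kb the density was 2.72 per Mb (2.57 to 2.88), above the interval within 10 kb, and beyond 100 kb it was 2.53 per Mb. Gaps in the assembly were not removed from the sequence length and lower a density wherever they fall. Within the allowed range the density was highest in the first kb, at 2.93 per Mb (2.40 to 3.55, from 106 members), and 2.03 per Mb from 9 to 10 kb (1.65 to 2.49, from 95 members), with overlapping intervals.

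**Figure D1:**
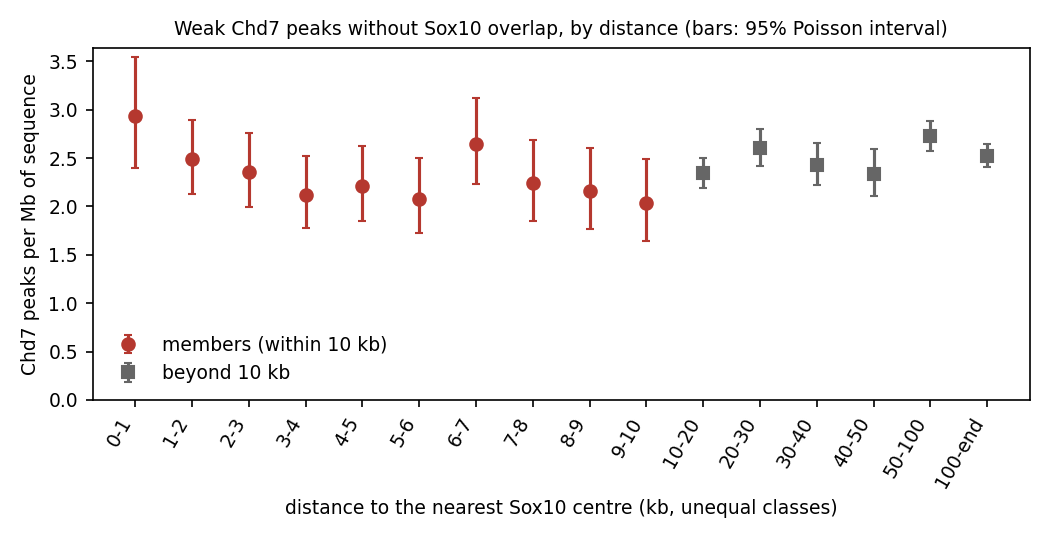
Weak Chd7 peaks without Sox10 overlap per Mb of sequence outside Sox10 peaks (y axis) in classes of distance to the nearest Sox10 centre in kb (x axis, unequal classes); points are densities, bars 95% exact Poisson intervals, circles members and squares the peaks beyond 10 kb. The densities run from 2.03 to 2.93 per Mb within 10 kb and from 2.34 to 2.72 per Mb beyond it.

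This average covered different patterns around weak and strong Sox10 peaks. Sox10 scores were not used by the rule. The 37424 Sox10 peaks on the same chromosomes and outside the dense stretches were divided into score quartiles of 9356 peaks each, with limits at 70.99, 116.95 and 247.25. Around the weakest quartile there were 3.57 members per Mb of sequence within 10 kb (3.27 to 3.90, 501 members). Around the second there were 2.61 per Mb (2.35 to 2.90, 357 members), and around the third 1.58 per Mb (1.37 to 1.81, 212 members). Around the strongest quartile there were 1.41 per Mb (1.22 to 1.63, 187 members). The weakest Sox10 peaks thus had 2.53 times the member density of the strongest (interval 2.13 to 3.01). The sequence that lay within 10 kb of each Sox10 peak and nearer to it than to any other differed little between quartiles, from 14.99 kb per peak in the weakest to 14.1 kb in the strongest.

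Near the weakest Sox10 peaks the density of weak Chd7 peaks was highest close to the centre. It was 5.07 per Mb at 0 to 2 kb (4.27 to 5.98, 141 peaks), 4.00 per Mb at 2 to 5 kb (186 peaks) and 2.64 per Mb at 5 to 10 kb (174 peaks). From 10 to 20 kb it was 2.68 per Mb. From 20 to 50 kb it was 2.67 per Mb, so the innermost class had 1.90 times the density of the outermost (interval 1.56 to 2.29). Near the strongest Sox10 peaks the densities within 5 kb were the lowest of their distance classes, though the order over all classes was not even. The density was 1.09 per Mb at 0 to 2 kb (0.71 to 1.59, 26 peaks), 0.94 per Mb at 2 to 5 kb (43 peaks), 1.89 per Mb at 5 to 10 kb (118 peaks), 1.68 per Mb at 10 to 20 kb (151 peaks) and 2.39 per Mb at 20 to 50 kb. The innermost class there had 0.46 times the density of the outermost (0.29 to 0.68). The second quartile had 2.94 per Mb at 0 to 2 kb and 2.38 at 20 to 50 kb, and the third had 1.13 and 2.45 per Mb at the same distances. At 20 to 50 kb the densities of the 4 quartiles lay between 2.38 and 2.67 per Mb. The median distance of a member from its Sox10 centre was accordingly 3525 bp at the weakest and 5918 bp at the strongest quartile.

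**Figure D2:**
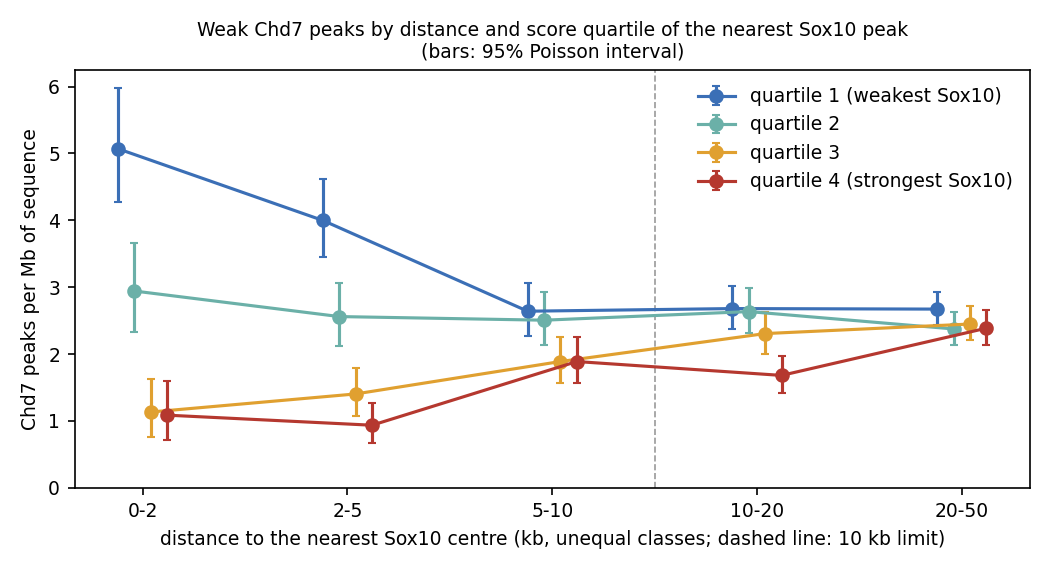
Weak Chd7 peaks without Sox10 overlap per Mb (y axis) by distance to the nearest Sox10 centre in kb (x axis, unequal classes, the dashed line marking 10 kb), with a line for each score quartile of the nearest Sox10 peak and bars for 95% exact Poisson intervals. The quartiles lie between 2.38 and 2.67 per Mb at 20 to 50 kb and separate to 5.07 (weakest) and 1.09 per Mb (strongest) at 0 to 2 kb.

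This order was seen on most chromosomes taken singly. The density around the weakest Sox10 quartile was above that around the strongest on 19 of 20 chromosomes, with a median ratio of 2.27. The ratio was highest on chromosome 9, at 4.95 (30 members at the weakest and 5 at the strongest quartile). The exception was chromosome 19, with 3 and 8 members and a ratio of 0.45. Among the other 19, chromosomes 15 (2.26 against 2.22 per Mb, 14 and 10 members) and 12 (2.00 against 1.69, 6 and 7 members) differed little. All chromosomes come from the same 2 libraries and are not replicates. Chd7 peaks that the score limit keeps out of the group gave the same order: of 129 Chd7 peaks with scores of 120 or more that otherwise met the rule, 48 had a nearest Sox10 peak in the weakest and 20 in the strongest quartile, densities of 0.35 and 0.15 per Mb and a ratio of 2.26 (1.32 to 4.03). Members lay in regions with many Chd7 calls more often than the far peaks did: 13.5% of members (170) were in 1 Mb stretches with 15 or more Chd7 peaks, against 6.92% of the weak Chd7 peaks beyond 10 kb (373). Without those stretches the ratio of the weakest to the strongest quartile was 2.28.

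The Sox10 peaks that had a member as neighbour were correspondingly weak. The members had 1154 different nearest Sox10 peaks, or 3.08% of the 37424 examined. Their Sox10 score had a median of 83.0 (interval of the median 79.7 to 88.5), against 118 (117 to 120) for the other 36270 Sox10 peaks. Of the weakest quartile of Sox10 peaks 4.78% were nearest to a member, and of the strongest 1.97%. Their median width was 622 bp, against 656 bp for the others. By quartile, from the weakest to the strongest, the flanked Sox10 peaks had median widths of 516, 606, 695 and 906 bp and the others of 488, 586, 710 and 901 bp, so the flanked ones were the wider in all but the third. Over all members, the Chd7 score of the member and the Sox10 score of its neighbour had a rho of 0.02. The rule keeps the Chd7 scores of members below 120, so this value describes that range only and carries no test.

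The members with the strongest Sox10 neighbours show the less frequent arrangement, a weak Chd7 call next to a prominent Sox10 site. The first, on chromosome 2 at 234755483 to 234755770 (Chd7 score 70.3), lay 3879 bp from the centre of a Sox10 peak at 234751243 to 234752252 with a score of 1775. That Sox10 peak carried its own Chd7 peak, which scored 141. On chromosome 5 a member at 155726934 to 155727165 (score 60.6) was 7384 bp from a Sox10 peak of score 1657 that had no Chd7 peak on it. The Sox10 peak beside the member on chromosome 7 at 121471006 to 121471431 (score 58.7) scored 1638 and likewise had none. A member on chromosome 1 at 262081676 to 262082088 (score 53.6) had a Sox10 neighbour of score 1598, also without Chd7. On chromosome 13 the member at 55296934 to 55297232 (score 53.9) and the Chd7 peak on its Sox10 neighbour (58.4) were of similar strength. The sixth, on chromosome 3 at 77972539 to 77972755, scored 53.0 beside a Sox10 peak whose own Chd7 peak scored 263. Of these 6 Sox10 peaks 3 carried Chd7.

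The 6 highest-scoring members had Sox10 neighbours below the Sox10 median, as did 858 of all 1257 members (68.3%). They scored from 117.28 to 119.56, and the nearest Sox10 peaks from 52.14 to 80.04, below the Sox10 median of 116.95. The highest lay on chromosome 9 at 105857517 to 105858165, 913 bp from the edge of a Sox10 peak of score 57.4. The next, on chromosome 18 at 8078342 to 8078945, was the only one of the 6 whose Sox10 neighbour carried a Chd7 peak, of score 58.8. Another 3 were on chromosome 2 at 47929041 to 47929403, on chromosome 9 at 118843675 to 118844046 and on chromosome 16 at 22027789 to 22028589. The sixth, on chromosome 1 at 105271705 to 105272002, was 9837 bp from its Sox10 centre. Just above the score limit, the nearest comparable Chd7 peaks scored from 120.15 to 121.23, beside Sox10 peaks of 55.72 to 1243.27.

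The closest members nearly touched their Sox10 peak. On chromosome 13, a Chd7 peak at 78306957 to 78307228 (score 55.5) ended 6 bp before a Sox10 peak at 78307235 to 78307743 (score 53.9). On chromosome 20 the gap was 9 bp, between Sox10 at 42860839 to 42861286 (score 52.5) and Chd7 at 42861296 to 42861600 (score 88.3). On chromosome 4 a member at 180189522 to 180189769 began 11 bp past a Sox10 peak of score 82.8. The 6 smallest gaps were between 6 and 39 bp. All 6 Sox10 peaks scored below the Sox10 median, as did the Sox10 neighbours of 68.3% of all members. Of the 6, 0 overlapped another Chd7 peak. Among all flanked Sox10 peaks the share was 5.59% in the weakest score quartile and 10.9% in the second, so 6 peaks are too few to show a difference. At the other limit, the 4 farthest members were 9981 to 9999 bp from Sox10 and the first 4 peaks outside 10007 to 10036 bp. The number of weak unshared Chd7 peaks was 95 in the last kb inside and 116 in the first kb outside.

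Most members had a Sox10 peak that carried no Chd7 of its own. The nearest Sox10 peak overlapped another Chd7 peak for 180 of 1257 members (14.3%). Counted over Sox10 peaks, this was 162 of 1154 (14.0%, exact interval 12.1% to 16.2%), against 15.5% of all 37424 Sox10 peaks examined, a value inside that interval. Because Sox10 peaks with a high score carry Chd7 more often and the flanked ones were weak, the comparison was repeated by quartile. In the weakest quartile 5.59% of flanked Sox10 peaks (25 of 447, 3.65% to 8.15%) carried Chd7, against 2.99% of the others. In the second it was 10.9% (35 of 321, 7.71% to 14.8%) against 6.47%. In the third it was 15.8% against 14.7%, and in the strongest 38.0% (70 of 184, 31.0% to 45.5%) against 37.5%. With the others weighted to the quartiles of the flanked peaks, their share was 11.5%.

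Expressed as density, members were more frequent around weak Sox10 peaks with Chd7 on them than around equally weak ones without. In the weakest quartile the densities were 6.43 per Mb (4.31 to 9.23, 29 members) and 3.48 per Mb (3.17 to 3.81, 472 members), a ratio of 1.85 (1.22 to 2.69). In the second quartile they were 4.70 and 2.46 per Mb, a ratio of 1.91 (1.36 to 2.63). In the third the ratio was 1.07 (0.72 to 1.55) and in the strongest 1.10 (0.81 to 1.49), intervals that include equal density. Over all quartiles together it was 0.93 (0.79 to 1.09). Whether the ratio itself differs between quartiles was not tested. The ratio in the weakest quartile rests on 29 members at 25 Sox10 peaks with Chd7. These ratios were not recomputed without stretches of 15 or more Chd7 peaks. Without those stretches, 12.6% of the flanked Sox10 peaks carried Chd7 (10.6% to 14.8%), instead of 14.0%.

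**Figure D3:**
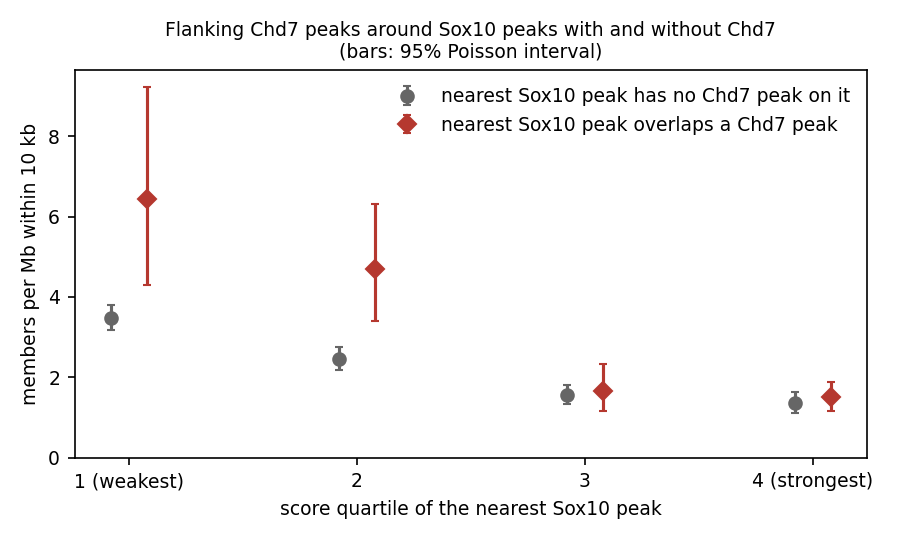
Members per Mb of sequence within 10 kb (y axis) for each score quartile of the nearest Sox10 peak (x axis), with circles for Sox10 peaks without and diamonds for those with an overlapping Chd7 peak, and bars for 95% exact Poisson intervals. Diamonds stand above circles in the weakest quartile (6.43 against 3.48) and the second (4.70 against 2.46), and close to them in the third and the strongest.

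Where the Sox10 neighbour did carry Chd7, the highest-scoring Chd7 peak on Sox10 was usually the stronger of the pair. Taking the highest score, without the limit of 120 set for members, favours the peak on Sox10. It scored a median of 76.3 (quartiles 59.5 and 117), against 63.7 for the 180 members concerned, and was higher than the member in 124 of 180. In 43 of them the peak on Sox10 scored 120 or more and exceeded the member by the way members were chosen. In the remaining 137 it was the higher one in 81. The peak on Sox10 was also the wider in 124 of 180 (median 376 against 288.5 bp). Width goes with score, and this count was not repeated for the 137. Weak Chd7 peaks on Sox10 in general were also wider than members (median 347 against 279 bp). Members whose Sox10 neighbour carried Chd7 lay farther from it (median 5696 bp) than the other members did (4335 bp). The Sox10 score of that neighbour was also higher (median 171 against 76.8). The median distance was 3525 bp at the weakest and 5918 bp at the strongest Sox10 quartile, and the distances were not compared within quartiles.

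Members had Chd7 neighbours more often than other weak Chd7 peaks did. Another Chd7 centre lay within 10 kb of 418 of the 1257 members (33.3%, 30.7% to 35.9%), against 18.3% of all weak Chd7 peaks. The share was 17.2% (16.2% to 18.2%) for weak Chd7 peaks beyond 10 kb and 15.5% (14.5% to 16.6%) for those that overlap Sox10. Most of the difference from the far peaks came from Chd7 peaks that lie on Sox10, which a peak far from Sox10 can hardly have within 10 kb. Counting only neighbours without Sox10 overlap, the share was 19.2% for members (17.0% to 21.5%) and 17.2% for the far peaks (16.2% to 18.2%), with overlapping intervals. It was 4.02% for weak Chd7 peaks on Sox10. Of the 418 nearest Chd7 neighbours, 190 overlapped Sox10, 181 were members themselves, 20 scored 120 or more without overlap and 27 were other peaks. In 149 cases the neighbour sat on the member's own nearest Sox10 peak. The remaining 839 members had no Chd7 centre within 10 kb and no Chd7 peak on their Sox10 neighbour.

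The width of members resembled that of weak Chd7 peaks far from Sox10 more than that of Chd7 peaks on Sox10. Medians were 279 bp for members, 263 bp beyond 10 kb and 347 bp on Sox10. Width goes with score, and scores on Sox10 were higher (median 68.8, against 60.35 in members and 59.65 beyond 10 kb). At equal score the order was the same. Between scores of 50 and 55 the medians were 244, 241 and 276 bp for members, far peaks and peaks on Sox10. Between 70 and 90 they were 331, 306 and 377 bp, and between 90 and 120 they were 369, 365 and 437 bp. The portion of unshared Chd7 peaks that lay within 10 kb of Sox10 changed little with the Chd7 score, from 18.2% between 50 and 55 to 20.7% between 90 and 120, and was 19.8% at 120 or more.

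**Figure D4:**
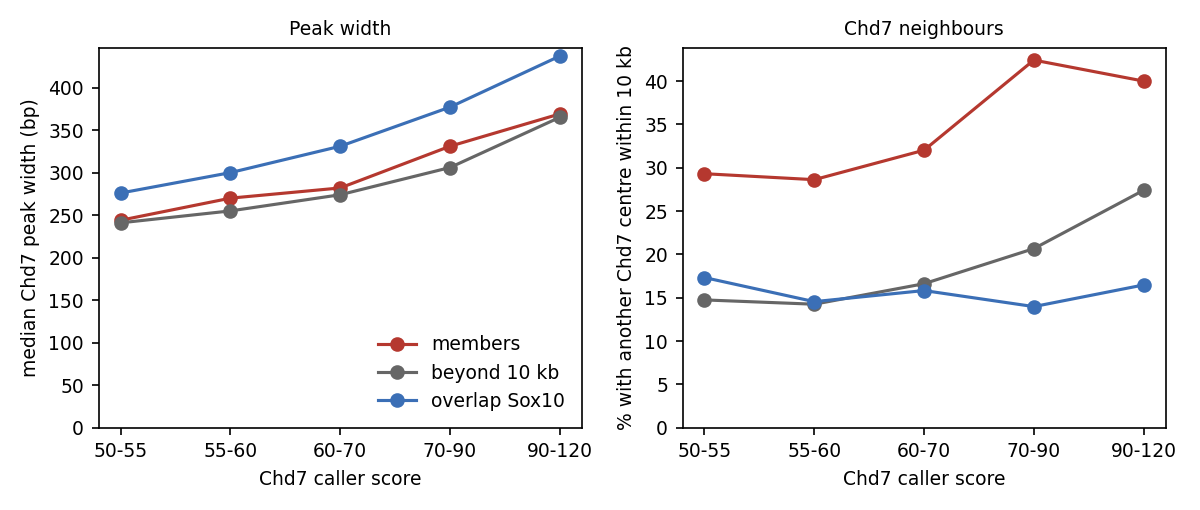
Median Chd7 peak width in bp (left) and the percentage of peaks with another Chd7 centre within 10 kb (right) by band of Chd7 caller score (x axes, unequal bands), with lines for members, weak Chd7 peaks beyond 10 kb and weak Chd7 peaks on Sox10. Members follow the far peaks in width (244 and 241 bp in the lowest band) and stand above both other groups in neighbours (29.3%, against 14.8% and 17.3%, in the lowest band). The far peaks can hardly have a Chd7 peak on Sox10 within 10 kb. Counting only neighbours without Sox10 overlap, the shares over all bands were 19.2% for members and 17.2% for far peaks.

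A few members were far wider than the rest. Only 14 of 1257 reached 1000 bp, as did 23 of 5392 weak Chd7 peaks beyond 10 kb and 7 of 4775 on Sox10. Of the 14, 10 lay in 1 Mb stretches with 15 or more Chd7 peaks, against 13.5% of all members. Another Chd7 centre lay within 10 kb of 12, against 33.3% of all members. A Sox10 neighbour that carried Chd7 was found for 7, against 14.3% of all members. The widest, on chromosome 14 at 46791531 to 46794580 (3050 bp, score 89.8), lay beside a Sox10 peak of 5623 bp that carried a Chd7 peak of score 298. A second on chromosome 14, at 46837647 to 46840340 (2694 bp), lay next to a Sox10 peak whose Chd7 peak scored 675. On chromosome 1 members at 54908126 to 54910993 (2868 bp) and 54911020 to 54913391 (2372 bp) followed each other and shared the same Sox10 neighbour, at 54913570 to 54914369 (score 74.3). The member on chromosome 19 at 5812697 to 5815185 (2489 bp) lay 522 bp from a Sox10 peak of score 652. The sixth, on chromosome 1 at 57210511 to 57212563 (2053 bp), lay beside a Sox10 peak of score 81.4 that carried no Chd7. All 6 had another Chd7 centre within 10 kb, and 5 had a Sox10 neighbour that carried Chd7. Their widths, from 2053 to 3050 bp, were far above the median of 279 bp over all members.

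Most members faced Sox10 on a single side. In 124 of 1257 (9.86%, 8.27% to 11.6%) a Sox10 centre lay within 10 kb both at lower and at higher coordinates, with a median of 10.5 kb between both Sox10 centres. Such places made up 11.2% of the sequence within 10 kb of Sox10. Members there had a density of 2.03 per Mb (1.69 to 2.43), against 2.35 per Mb (2.21 to 2.49) in places with Sox10 on a single side, and the intervals overlap. Within 100 kb, members had a median of 4 Sox10 centres, weak Chd7 peaks on Sox10 had 5 and the far peaks 1. The last value is lowered by the rule that keeps Sox10 out of the nearest 10 kb.

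The flanked Sox10 peaks mostly had a single member, but only 3.08% of the 37424 Sox10 peaks examined had any. How many would have 2 or more under random placement was not computed. Of the 1154, 1070 were nearest to 1 member, 67 to 2, 15 to 3 and 2 to 4. The 84 with 2 or more were weaker (median Sox10 score 68.8) than those with 1 (85.1). They included 45 of the weakest quartile and 3 of the strongest, where all 1154 flanked peaks included 447 and 184. Of the 84, 14 carried Chd7, as did 162 of the 1154 (14.0%). At 33 of the 84 the members stood on both sides of the Sox10 peak and at 51 on the same side. Of the 84, 34 lay in 1 Mb stretches with 15 or more Chd7 peaks, where 13.5% of all members lay. The share of all flanked Sox10 peaks in such stretches was not computed.

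Neither of the Sox10 peaks with 4 members had another Sox10 peak within 15 kb or a Chd7 peak on it. On chromosome 10, a Sox10 peak at 11160076 to 11161136 (score 86.1) had 3 members at lower coordinates, with centres at -8.53, -7.26 and -1.85 kb from its own, and 1 at 6.88 kb on the other side. Their Chd7 scores were 51.6, 82.2, 86.2 and 60.7, so the member nearest to Sox10 was the strongest. On chromosome 8, a Sox10 peak at 42152480 to 42153842 (score 83.2) had 2 members on each side, at -6.38, -4.53, 1.54 and 6.73 kb, with scores of 51.3, 59.6, 77.8 and 56.7. The member nearest to Sox10 was the strongest there too, but over all members distance and score had a rho of -0.04. A further 15 Sox10 peaks had 3 members, and 4 of the 17 with 3 or 4 carried Chd7. Among the 4 of these 15 with the highest Sox10 scores, on chromosomes 8, 9, 2 and 20, the one on chromosome 20 at 42594778 to 42599861 carried a Chd7 peak (score 376) of 4571 bp and stood among further Chd7 calls of score up to 258.

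**Figure D5:**
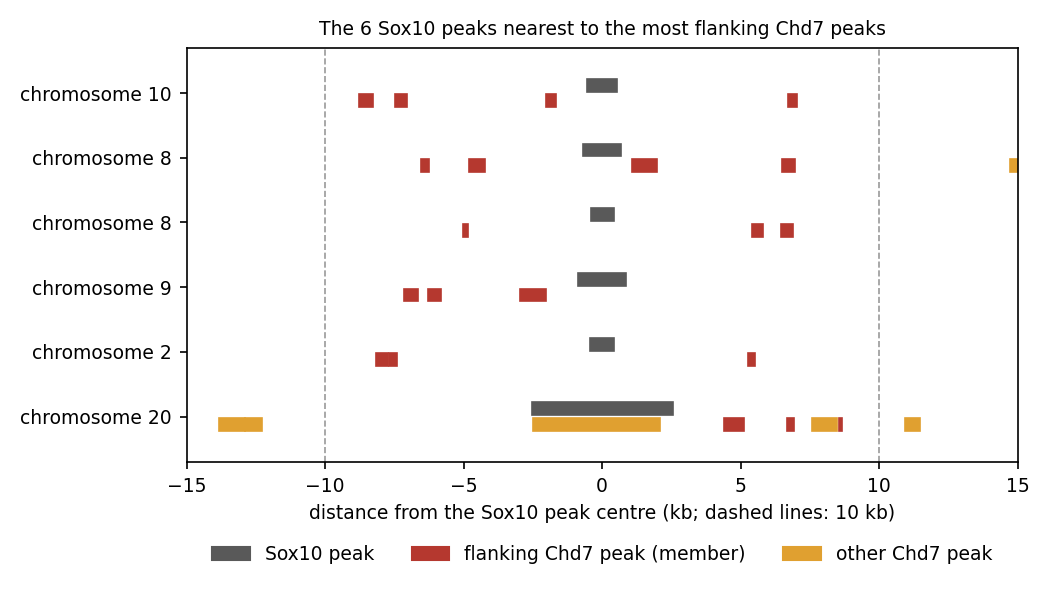
Map of 6 Sox10 peaks nearest to the most members (2 with 4 members and, of 15 with 3, the 4 with the highest Sox10 score), each row centred on its Sox10 peak (x axis, distance in kb; dashed lines mark 10 kb), with Sox10 peaks in grey, members in red and other Chd7 peaks in orange, all drawn to scale. Members stand on both sides of Sox10 at the 2 sites with 4 members, and the Sox10 peak shown on chromosome 20 carries a Chd7 peak.

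Across chromosomes, the portion of weak unshared Chd7 peaks that were members ran from 12.3% on chromosome 13 (32 of 260, 8.57% to 16.9%) to 30.2% on chromosome 12 (26 of 86, 20.8% to 41.1%), against 18.9% over all. Chromosome 7 stood second at 25.2% (98 of 389, 20.95% to 29.8%). The largest numbers of members were on chromosome 2, with 153 of 835 (18.3%), and chromosome 1, with 146 of 780 (18.7%). Both portions are close to that over all chromosomes. Over the 20 chromosomes, this portion and the number of Sox10 peaks per Mb had a rho of 0.63. More Sox10 peaks per Mb put more sequence within 10 kb of Sox10, so the portion can rise with them by the rule alone. The rho and the range across chromosomes are therefore a description and carry no test.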

How the data were processed

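Chromatin immunoprecipitation sequencing gave 1 library per antibody, Chd7 and Sox10. The authors deposited 1 peak list each, with chromosome, start, end and a caller score per peak. Per the submitters' processing notes, CASAVA, Bowtie2, MACS and build rn5 were used. Versions, settings and any control library were not given in the sources used here. As both lists hold no read counts, depth is unknown. Nothing in the labels describes replicates.

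Peaks overlapped when they shared at least 1 bp (overlap counts equal those of bedtools 2.31.1). Centres are the mean of start and end, and coordinates are 1-based on rn5. Density is peaks per Mb of sequence from the first to the last peak of each chromosome, on a 10 bp grid, leaving out dense 1 Mb stretches and Sox10 peaks widened by 139.5 bp on each side, a member's median width divided evenly. Each position counted for its nearest Sox10 centre. Shares carry exact binomial, densities exact Poisson and ratios exact conditional intervals at 95%; they count peaks within 1 pair of libraries and describe no difference between conditions. The calculation was tested on simulated data. Named peaks are the 6 with the highest score, the smallest gap, the strongest Sox10 neighbour and the largest width, the 4 on each side of 10 kb, and the 6 Sox10 peaks with most members (ties ordered by Sox10 score); those just above the score limit were chosen after their values were seen. The members and comparisons were chosen with earlier results of these data known, and the division by Sox10 score quartile for density was added after seeing the data. No rn5 sequence or annotation was used here, so no gene, motif or sequence is given for a peak, and the planned gene and motif descriptions were not made. Software was scipy 1.17.1, numpy 2.4.6, pandas 2.3.3 and matplotlib 3.10.9 under Python 3.11.15.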

Additional observations from a re-analysis of the deposited data

How the results depend on the processing

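Each of 7 results was recomputed under 9 other settings, and 40 of the 63 values stayed within the interval of the reported one. With a distance limit of 5 kb, 11.5% of the nearest Sox10 peaks carried Chd7, their median score was 74.5, the median member width was 293 bp, 3.79% of members had Sox10 on both sides, and the weakest Sox10 quartile had 4.45 times the density of the strongest. With 20 kb, the median Sox10 score was 90.9, 18.5% of members had Sox10 on both sides, 27.02% had another Chd7 peak within 10 kb, and the quartile ratio was 2.10. Both shares on both sides follow the limit itself. With only Chd7 scores below 70, the median width was 263 bp and 29.97% had a Chd7 neighbour. With the dense stretches kept, the near to far density ratio was 1.05, 18.3% of the nearest Sox10 peaks carried Chd7, the width was 291 bp, 12.3% had Sox10 on both sides and 43.2% had a Chd7 neighbour. Leaving out stretches with 15 or more Chd7 peaks, a setting added after seeing the data, gave 26.6% with a Chd7 neighbour. With the upper 50% of Sox10 peaks alone, the density ratio was 0.77, 27.3% of the nearest Sox10 peaks carried Chd7 (26.0% of all retained ones), their median score was 227 (245 for all retained), 6.17% had Sox10 on both sides, 37.7% had a Chd7 neighbour, and the quartile ratio, over redrawn quartiles, was 1.27. In that setting, Chd7 peaks on the lower 50% of Sox10 peaks counted as having no Sox10 overlap and could be members. The cause of the changes under all these settings was not tested where the setting does not fix it. No setting put the quartile ratio below 1. A gap of at least 500 bp, no upper score limit and the addition of chromosome X left all 7 results within their intervals. No paired analysis was possible because there is a single library for Chd7 and for Sox10, and for the same reason no replicate could be left out. Depth is unknown, so Chd7 or Sox10 sites under the score floor of 50 cannot be seen, and a Sox10 site just below it would leave its Chd7 peak among the distant ones.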

Other observations

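Chromosome X, which the rule leaves out, held 45 weak Chd7 peaks that met the other conditions. Sox10 peaks were divided into quartiles by their scores on X. Of the 45, 20 had a nearest Sox10 peak in the weakest quartile (5.67 per Mb, exact Poisson interval 3.46 to 8.76), 17 in the second (4.81 per Mb), 5 in the third (1.52 per Mb) and 3 in the strongest (0.98 per Mb, 0.20 to 2.85). The ratio of the weakest to the strongest was 5.81, with a wide interval of 1.72 to 30.5. Within 10 kb of Sox10, the density of weak Chd7 peaks on X was 0.98 times that from 10 to 50 kb (0.68 to 1.40).

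The Sox10 neighbours of members within 5 kb were weaker than those of members farther away. For the 106 members within 1 kb the median Sox10 score was 70.6, for the 169 between 1 and 2 kb it was 68.0, for the 411 between 2 and 5 kb 75.7, and for the 571 between 5 and 10 kb 101. The member's own median Chd7 score lay between 59.6 and 61.9 in the same classes. The portion whose Sox10 neighbour carried Chd7 was 9.43% within 1 kb (10 of 106, 4.62% to 16.7%), 14.2% between 1 and 2 kb, 10.2% between 2 and 5 kb and 18.2% from 5 to 10 kb (104 of 571, 15.1% to 21.6%).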
